A study of Mus musculus with 6 samples.

Results

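Complex I of the mitochondrial respiratory chain is built from many proteins, most of them encoded in the nucleus by genes whose symbols begin with Nduf. The genes described here are the 46 protein-coding genes with such a symbol among the 54532 genes of the count table. Of these, 38 encode structural subunits and 8, the Ndufaf genes, encode assembly factors. All 46 had enough reads to be tested, as did 14866 genes in all.

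RNA was sequenced from whole hearts of male mice at 3 months of age, 3 animals of each of 2 genotypes on a C57BL/6 background. In α1s/sα2s/s hearts (mice 379, 380 and 381), called sensitive, the α1 isoform of the Na/K-ATPase carried substitutions that give it a high affinity for cardiotonic steroids. In α1r/rα2s/s hearts (mice 368, 369 and 370), called resistant, α1 was the rodent form with low affinity. Both genotypes carried a sensitive α2 isoform, so the labelled contrast was the α1 allele, present in every cell of the body. Whether other sequence differed between the genotypes cannot be told from the labels. None of the animals in this comparison was described as treated. The study's methods describe the controls as littermates in general and as age-matched for the sequencing, and the labels name no litters. Counts per gene do not read the substitutions, so the genotypes rest on the labels. Each heart gave between 19309312 and 20470065 counts. The cardiomyocyte markers Myh6, Actc1, Tnnt2 and another 10 genes summed to between 74045 and 90270.8 CPM in every heart, where CPM are counts per 1000000 of the library after scaling by TMM.

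Complex I takes electrons from NADH and passes them to ubiquinone, and it uses the energy released to pump protons across the inner mitochondrial membrane. Its N module binds NADH, its Q module reduces ubiquinone, and its membrane arm pumps protons. A small set of core subunits carries out the catalysis, with the flavin and the iron-sulfur clusters in nuclear-encoded core subunits and the proton channels in subunits encoded by mitochondrial DNA. The remaining accessory subunits surround the core, and assembly factors join the modules but leave the finished enzyme. Heart muscle is among the tissues richest in this enzyme.

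The structural subunit genes were mostly slightly higher in sensitive than in resistant hearts, and the assembly factor genes lay on both sides of 0, a contrast that was not tested. Of the 38 structural genes, 36 had a higher fitted level in sensitive hearts (94.7%, against 48.4% of all genes tested). Their median log2 fold change, sensitive over resistant, was 0.11, a difference of 8.06%, and the range ran from -0.12 to 0.18. These values use TMM scaling, and on library totals without a scaling factor the median was 0.029 and 30 of 38 were higher. Among the 8 assembly factors 4 were higher and 4 lower, with a median log2 fold change of 0.0016. The median over all genes tested was -0.0078.

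No single gene of the 46 passed the threshold. The quasi-likelihood test of edgeR, with the adjusted p held under 0.05, called 0 of 38 structural genes and 0 of 8 assembly factors. Over the whole table it called 214 genes (1.44%), of which 116 were higher (0.78%) and 98 lower (0.659%) in sensitive hearts. When library totals were used without a scaling factor, that split was 47 higher and 136 lower. At an unadjusted p under 0.05, 5 structural genes were higher and 0 lower, and 1 assembly factor was higher in edgeR, beside 7.19% of all genes higher and 7.27% lower (14.5% in all). DESeq2 likewise called 0 of the 46 and called 3.7% of the genes it gave an adjusted p, 2.17% upwards. At an unadjusted p under 0.05 it had 8 structural genes and 1 assembly factor higher, beside 6.87% of all genes. In 10 of the 38 structural genes every sensitive heart lay above every resistant heart, and in 0 every sensitive heart lay below. Over all tested genes such separation was seen upwards in 10% and downwards in 9.98% (20% in all). Among the 2235 tested genes whose mean log2 CPM reached 6, which include 36 of the 38 structural genes and 1 assembly factor, 22.8% separated upwards, 68% were higher in sensitive hearts and the median log2 fold change was 0.061. The median standard error of a structural gene's log2 fold change was 0.073, against the median difference of 0.11.

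**Figure D1:**
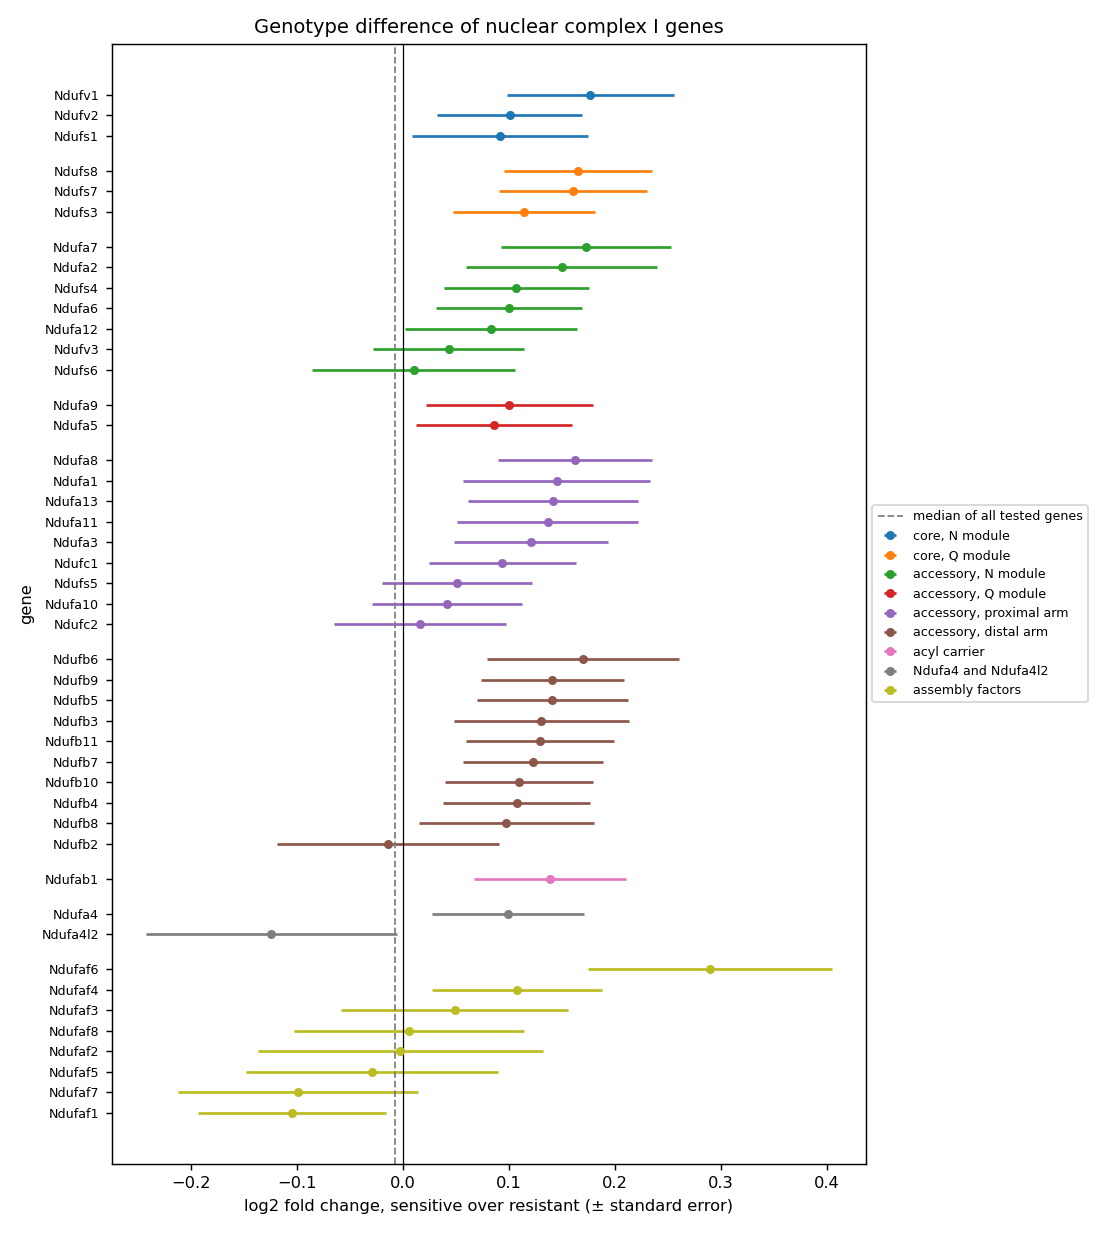
Log2 fold change of 45 of the genes, sensitive over resistant (x axis), with 1 standard error to each side, grouped by role in complex I; the solid line marks 0 and the dashed line the median of all tested genes (-0.0078). The structural genes lie mostly between 0 and 0.18 with Ndufb2 and Ndufa4l2 below 0, and the 8 assembly factors lie on both sides of 0.

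The 7 nuclear core subunits, which hold the redox centres, were all higher in sensitive hearts (median log2 fold change 0.12). An unadjusted p under 0.05 in edgeR was reached by 3 of the 7, beside 7.19% of all tested genes upwards. In 4 of the 7 the genotypes did not overlap, beside 10% of all tested genes upwards. Of tested genes whose mean log2 CPM reached 6, 68% were higher and 22.8% separated upwards. The core subunits are divided between the N module and the Q module, where electrons reach ubiquinone.

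Ndufs8 and Ndufs7 encode the iron-sulfur subunits on the path to ubiquinone and had the smallest p of the structural genes. Ndufs8 (ENSMUSG00000059734, chr19:3908870-3912717) stood at 165, 164 and 175 CPM in resistant hearts and at 179, 186 and 200 CPM (199.946 unrounded) in sensitive hearts. The groups did not overlap. The log2 fold change of Ndufs8 was 0.17 ± 0.070 (SE), or 12.2%, with an edgeR adjusted p of 0.289. Ndufs7 (ENSMUSG00000020153, chr10:80249121-80256794) read 268, 255 and 274 CPM against 299.976, 279 and 311 CPM, again without overlap, for a log2 fold change of 0.16 ± 0.070 (SE, edgeR adjusted p = 0.31). Ndufs3, a core subunit of the same module, also did not overlap, with 238, 222 and 235 CPM against 257, 242 and 252 CPM (log2 fold change 0.11, edgeR adjusted p = 0.458).

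Of the N module core, Ndufv1 (ENSMUSG00000037916, chr19:4007497-4012806), which holds the flavin that NADH reduces, had the highest log2 fold change of the 38, 0.18 ± 0.079 (SE), yet its hearts overlapped: 593, 528 and 607 CPM in resistant hearts against 654, 603 and 696 CPM in sensitive hearts (edgeR adjusted p = 0.32). Its lowest value, in mouse 369, lay well under the other 5. Ndufv2, an iron-sulfur partner of Ndufv1, was tight in sensitive hearts, with 437, 443 and 433 CPM, and lower in all resistant hearts, with 423, 384 and 418 CPM (log2 fold change 0.10, edgeR adjusted p = 0.535). Ndufs1, the largest iron-sulfur subunit, overlapped widely, with 769, 663 and 797 CPM against 762, 757 and 857 CPM (log2 fold change 0.092, edgeR adjusted p = 0.66).

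**Figure D2:**
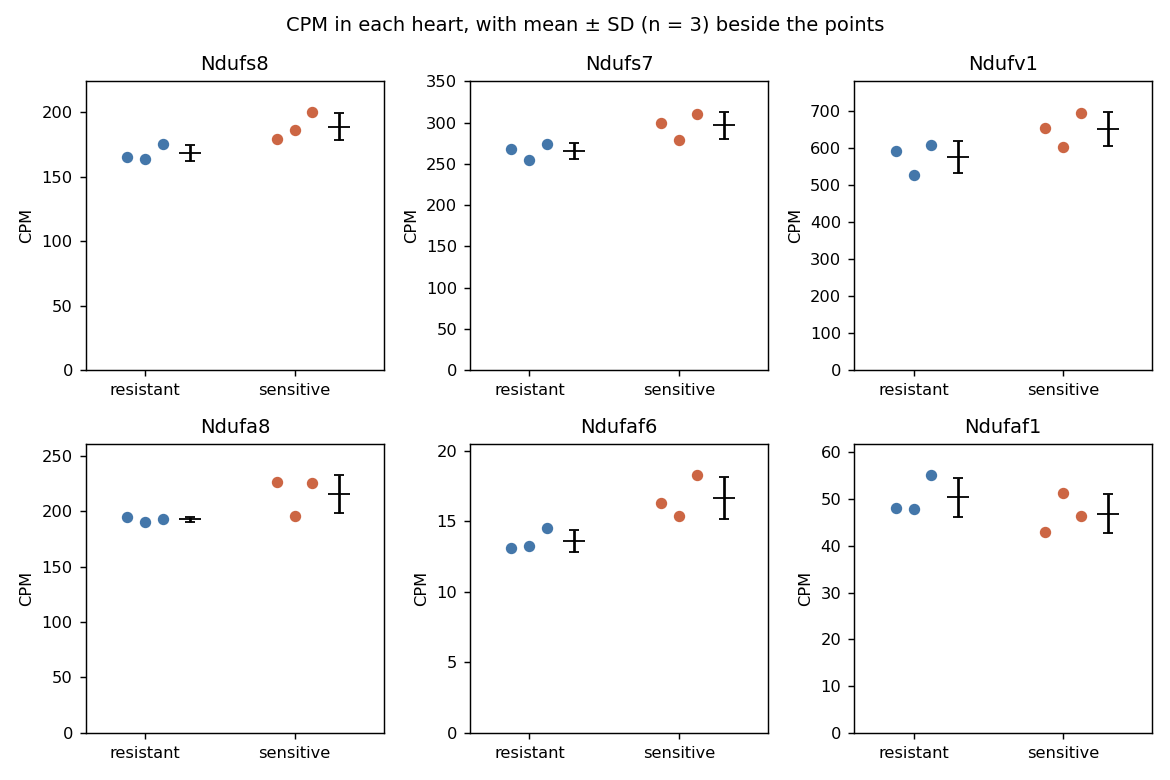
CPM (y axis, from 0) of 6 genes in each heart, resistant in blue and sensitive in orange, with the mean and SD of 3 hearts beside the points. Ndufs8, Ndufs7, Ndufa8 and Ndufaf6 show no overlap, Ndufv1 overlaps narrowly, and in Ndufaf1 the order of the group means is the opposite.

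Promoter sequences of the members were read from RefSeq (GRCm38.p6), in windows from 250 bases before to 50 bases after the annotated start, and 40 of the 46 genes had one. Gene positions elsewhere in the text are those of the count table on the same build, GRCm38. The letters searched on both strands were those linked to regulators of respiratory genes: GCGCATG for nuclear respiratory factor 1, CCGGAAG for the ETS family that includes GABPA, AAGATGG for YY1 and AAGGTCA for the estrogen-related receptors. AAGATGG was present in 7 of 33 structural windows (21.2%) against 8.13% of 10816 windows of all tested genes. GCGCATG was in 5 (15.2% against 7.55%), CCGGAAG in 4 (12.1% against 18.9%) and AAGGTCA in 3 (9.09% against 4.02%). In the 7 assembly factor windows the counts were 1 for AAGATGG, 2 for GCGCATG, 2 for CCGGAAG and 0 for AAGGTCA. These matches are descriptions of sequence and not evidence of binding.

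All 7 structural matches of AAGATGG lay on the gene's own strand, 22 to 38 bases after the start, and in 7 of 7 the ATG within the letters was the annotated start codon. A match on the gene strand after the start was found in 2.71% of the windows of all tested genes. The stretches around them are shown because the same letters recur at the same place in genes of different modules, with AAGATGG in capitals.

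Ndufs7 (Q module core), chr10:80249461-80249484, plus strand: aaggccgaggccAAGATGGcggcg
Ndufs4 (N module), chr13:114388048-114388071, minus strand: tttgcctacaggAAGATGGcggcg
Ndufs6 (N module), chr13:73328438-73328461, minus strand: agggtcaccggcAAGATGGcggcg
Ndufa9 (Q module), chr6:126849104-126849127, minus strand: gcattgtgggagAAGATGGcggcc
Ndufa3 (proximal membrane arm), chr7:3617383-3617406, plus strand: gccgccaagaacAAGATGGccggg
Ndufc1 (proximal membrane arm), chr3:51408922-51408945, minus strand: agcctgcggaacAAGATGGcgccg
Ndufb8 (distal membrane arm), chr19:44555393-44555416, minus strand: gcggagaaggtgAAGATGGctgcc

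The log2 fold changes of these 7 genes ran from 0.01 for Ndufs6 to 0.16 for Ndufs7, so genes with the letters lay at the low end as well as near the high end of the structural range. Another 3 stretches are shown for members described in the text. Ndufa8 carries CATGCGC, which is GCGCATG read on the other strand, directly before its RefSeq start. Ndufs3 holds CCGGAAG within the 30 bases before its start. The assembly factor Ndufaf8 holds both CCGGAAG and AAGATGG, and there the ATG was not the annotated start codon.

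Ndufa8, chr2:36049339-36049368, minus strand: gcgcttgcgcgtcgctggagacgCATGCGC
Ndufs3, chr2:90904722-90904751, minus strand: cgcCCGGAAGaagagtcactgcacatttcc
Ndufaf8, chr11:120098923-120098952, plus strand: actCCGGAAGaggcagggcccAAGATGGcg

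The accessory subunits followed the core. All 7 of the N module (median log2 fold change 0.10), both of the Q module (0.093) and all 9 of the proximal membrane arm (0.12) were higher in sensitive hearts, as were 9 of the 10 Ndufb genes of the distal membrane arm (0.13). In 5 of these 10 Ndufb genes (Ndufb4, Ndufb7, Ndufb9, Ndufb10 and Ndufb11) the genotypes did not overlap, against 0 of 7 in the N module and 1 of 9 in the proximal arm. Of all tested genes 10% separated upwards, as did 22.8% of those whose mean log2 CPM reached 6. The small counts by module and arm were not tested against each other.

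Ndufa8 (ENSMUSG00000026895, chr2:36036326-36049406), which sits on the intermembrane face of the proximal arm, was uniform in resistant hearts at 194, 190 and 193 CPM and reached 226, 196 and 225 CPM in sensitive hearts. Mouse 380 lay close to the resistant hearts and the other two sensitive hearts well above them. The log2 fold change was 0.16 ± 0.073 (SE), with an edgeR adjusted p of 0.323. Ndufa7, an N module subunit, showed 127, 119 and 137 CPM against 141, 133 and 158 CPM, with mouse 380 inside the resistant range (log2 fold change 0.17, edgeR adjusted p = 0.339).

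In the distal arm, Ndufb9 was measured at 256, 239 and 238 CPM in resistant hearts and 274, 259 and 275 CPM in sensitive hearts, a log2 fold change of 0.14 without overlap (edgeR adjusted p = 0.356). Of its annotated exon bases 19.5% are shared with the gene Gm49356 on the same strand. Ndufb5 gave 273, 255 and 263 CPM against 292, 271 and 309 CPM, with overlap at mouse 380 (log2 fold change 0.14, edgeR adjusted p = 0.385). Ndufab1, the mitochondrial acyl carrier protein that is built into both arms and also serves fatty acid synthesis, gave 282, 249 and 266 CPM against 299.777, 277 and 300.101 CPM (log2 fold change 0.14, edgeR adjusted p = 0.395).

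Only 2 structural genes had a lower fitted level in sensitive hearts. Ndufa4l2, a hypoxia-responsive relative of Ndufa4, had few reads, with 15.1, 15.3 and 12.8 CPM against 13.2, 13.4 and 13.1 CPM (log2 fold change -0.12, edgeR adjusted p = 0.676). Its sensitive hearts lay within the resistant range. Ndufb2, a small distal arm subunit, had 19.3, 17.2 and 19.5 CPM against 17.7, 17.9 and 19.9 CPM (log2 fold change -0.014, edgeR adjusted p = 0.966), and its sign changed when single hearts were left out. Ndufa4, listed by name as a complex I subunit but now assigned to complex IV, gave 556, 503 and 525 CPM against 555, 544 and 599 CPM (log2 fold change 0.099, edgeR adjusted p = 0.564). Without Ndufa4 and Ndufa4l2, 35 of 36 structural genes were higher and the median was 0.11 on the log2 scale.

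The gene that RefSeq calls Ndufb1 is listed as Ndufb1-ps with a non-coding biotype, so it was not counted among the 46. It had 1231, 1279 and 1169 counts in resistant and 1128, 1187 and 1064 counts in sensitive hearts, and a log2 fold change of -0.041 (edgeR adjusted p = 0.856), in contrast to 9 of the 10 Ndufb genes above. The other 4 Nduf rows left out by biotype were processed pseudogenes with at most 14 counts in any heart.

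Levels among the structural genes, Ndufa4 and Ndufa4l2 included, differed far more than the genotypes did. On the scale of CPM divided by the gene's length in kilobases (RPKM), Ndufa4 was highest at 396, and Ndufa5, a Q module accessory subunit, stood at 285. The lowest structural genes were Ndufb2 at 3.30, Ndufa4l2 at 12.6 and Ndufab1 at 40.5 RPKM, so that the ends of the range stood 120-fold apart (119.998). The length used is that of all annotated exons together, 5628 bases for Ndufb2 and 6883 bases for Ndufab1, so a gene with long rare transcripts has a lower value on this scale. Neighbours in the order often did not differ beyond their spread: Ndufa5 stood at 277 ± 17.5 RPKM in resistant hearts and Ndufb11, a distal arm subunit, at 260.2 ± 13.8 RPKM (SD, n = 3). The assembly factors lay between 5.13 RPKM for Ndufaf2 and 32.4 RPKM for Ndufaf1, below every structural gene except Ndufa4l2 and Ndufb2.

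**Figure D3:**
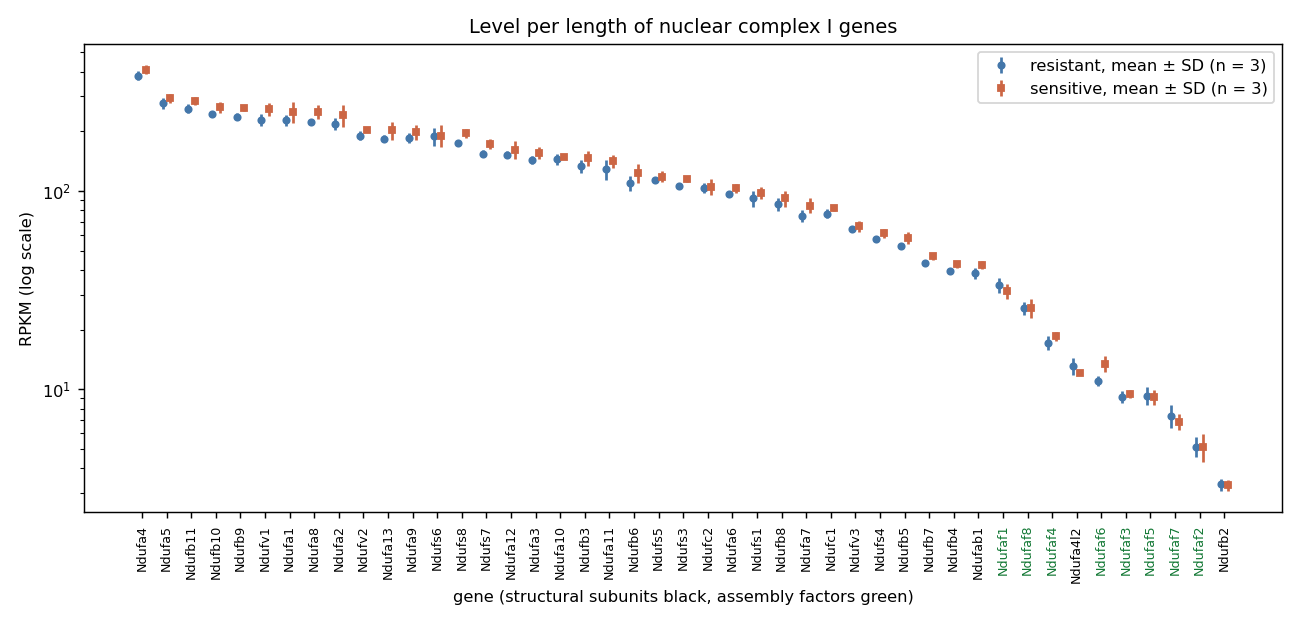
Level of 45 of the genes in RPKM (y axis, log scale), as the mean and SD of 3 hearts per genotype, in order of the mean over the 6 hearts, with assembly factors named in green. Levels run from 396 RPKM for Ndufa4 to 3.30 RPKM for Ndufb2, and the assembly factors sit at the low end.

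The assembly factors showed no common direction. Ndufaf6 (ENSMUSG00000050323, chr4:11051045-11076205), needed at an early step of assembly, differed most, with 13.1, 13.3 and 14.5 CPM in resistant hearts and 16.3, 15.4 and 18.3 CPM in sensitive hearts. It was the only one of the 8 without overlap, beside 10% of all tested genes separated upwards and 20% in either direction. Its log2 fold change was 0.29 ± 0.12 (SE), or 22.2%, and did not pass the threshold (edgeR adjusted p = 0.26). Ndufaf4, which acts with Ndufaf3 on the Q module, gave 67.8, 61.1 and 72.5 CPM against 72.0, 68.6 and 76.2 CPM (log2 fold change 0.11, edgeR adjusted p = 0.582).

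Ndufaf1, which helps to build the membrane arm, leaned the other way, with 48.0, 47.9 and 55.2 CPM against 43.0, 51.2 and 46.3 CPM (log2 fold change -0.10, edgeR adjusted p = 0.638). Ndufaf7, a methyltransferase, gave 28.2, 21.8 and 27.2 CPM against 24.4, 26.04 and 21.7 CPM (log2 fold change -0.099, edgeR adjusted p = 0.739). In both genes the hearts of the 2 genotypes were interleaved. The other 4 lay within 1 standard error of 0. They were Ndufaf3 (log2 fold change 0.049, edgeR adjusted p = 0.88), Ndufaf5, which modifies Ndufs7 (-0.029, 0.94), its partner Ndufaf8 (0.0056, 0.988) and Ndufaf2, a relative of Ndufa12 that acts late in assembly (-0.0025, 0.996). For Ndufaf2, 65.6% of the exon bases are shared with B230220B15Rik on the opposite strand, and whether counting used strand is not given in the sources used here, so its reads may be mixed. Opposite-strand sharing reached 39% for Ndufb6 and 30% for Ndufa13 and was lower for the other members.

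Assembly factors without an Ndufaf name gave a similarly mixed picture. Of 10 tested, 7 were higher and 3 lower, 0 were called by edgeR or by DESeq2, and the median log2 fold change was 0.062. At an unadjusted p under 0.05 in edgeR 1 was higher and 1 lower, beside 7.19% and 7.27% of all tested genes. The smallest p belonged to Dmac2, a factor for the distal membrane arm, with 30.7, 30.2 and 36.4 CPM in resistant and 37.6, 37.9 and 42.0 CPM in sensitive hearts, a difference of 20.8% (edgeR adjusted p = 0.186).

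Seen by heart, the structural genes varied together, and the genotypes overlapped. Their summed level was 9478.14, 8770.21 and 9422.44 CPM in resistant hearts and 9994.52, 9432.27 and 10481.8 CPM in sensitive hearts, which gave 9223.6 ± 394 against 9969.5 ± 525 CPM (SD, n = 3), a ratio of 1.08. Mouse 380 stood below the resistant mouse 368 in this sum, and mice 379 and 381 stood above all resistant hearts. Mouse 381 had the highest value of the 6 hearts in 27 of the 38 genes and mouse 379 in 8, while mouse 369 had the lowest value in 24. Over all 703 pairs of structural genes the median Pearson r across the 6 hearts was 0.69, and it was 0.59 after the genotype means were removed, a description over points that share libraries. The spread within a genotype had a median SD of 0.083 in log2 CPM against 0.16 over all genes tested. That comparison was not matched for level. A mean log2 CPM of 6 was reached by 36 of the 38 structural genes, but by only 2235 of the 14866 genes tested.

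The assembly factors summed to 228, 215 and 238 CPM in resistant and 227, 225 and 239 CPM in sensitive hearts, a ratio of 1.01. Within each heart, the median deviation of the structural genes from their 6-heart means, in log2 CPM, was compared with that of the assembly factors. The structural median less the assembly factor median was -0.015, -0.027 and -0.10 in resistant hearts and 0.017, 0.012 and 0.030 in sensitive hearts, without overlap. Since the lists were chosen with the data known, this difference carries no test. The lists were also not matched for level. A mean log2 CPM of 6 was reached by 36 structural genes but by only 1 assembly factor. All tested genes at that level had a median log2 fold change of 0.061.

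**Figure D4:**
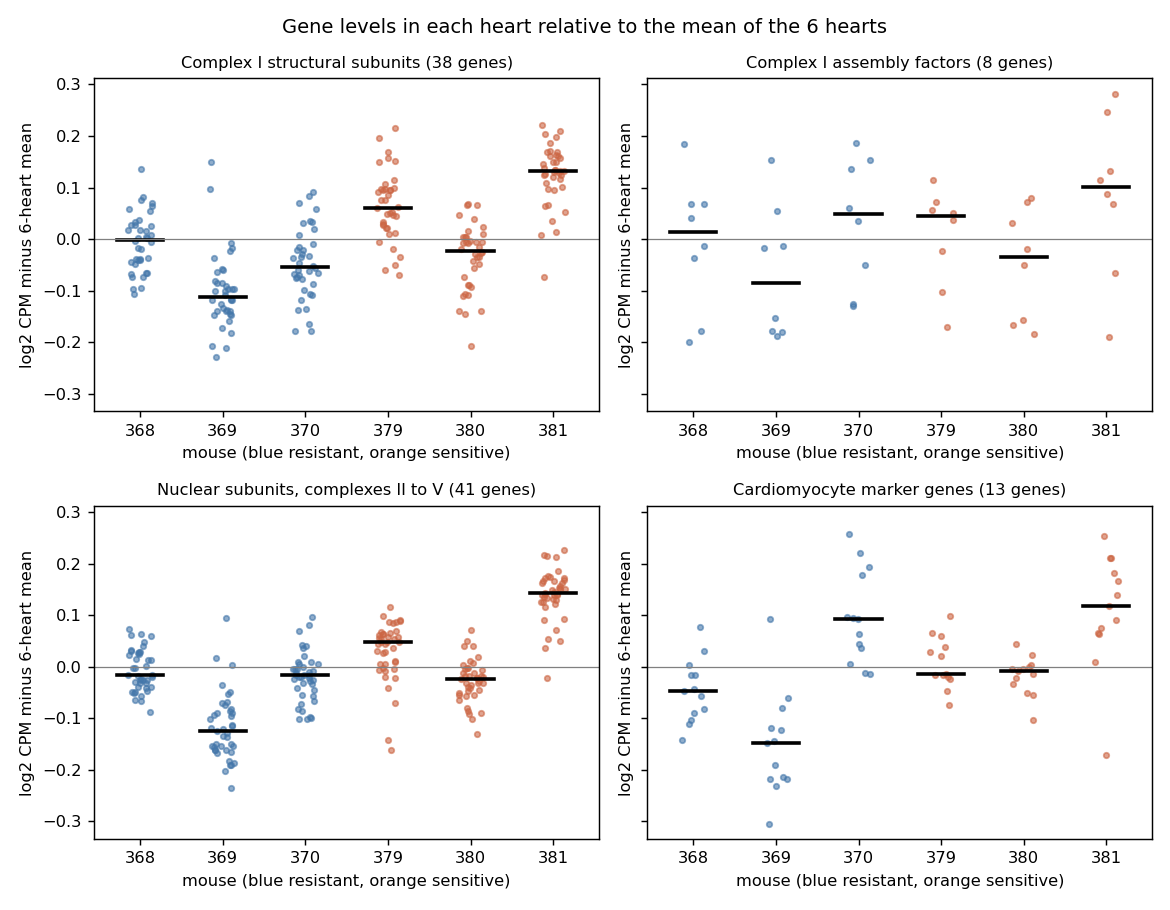
Log2 CPM of each gene in each heart minus its mean over the 6 hearts (y axis), for 4 gene lists, with resistant mice in blue, sensitive mice in orange and the list median as a black bar. All 4 lists, the assembly factors and the cardiomyocyte markers included, have mouse 369 lowest and mouse 381 highest by median. The assembly factor points scatter more widely than those of the structural genes.

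The size of the difference depended on the scaling of the libraries. As a share of all counts, without a scaling factor, the structural genes made up 9807.9, 9314.07 and 9300.59 unscaled CPM in resistant hearts and 9834.17, 9285.93 and 9893.13 in sensitive hearts. The means were 9474 ± 289 and 9671 ± 335 (SD, n = 3), and the lowest value of all was that of a sensitive heart. The TMM factors, which offset differences in library composition, lay between 0.989 and 1.06 in resistant hearts and between 0.945 and 0.986 in sensitive hearts. On library totals the median log2 fold change of all genes was -0.091 and 31.8% of all genes were higher. Scaling factors shift all genes by nearly the same amount, so the distance of the structural median from the median of all genes, 0.12, hardly changes with them by construction.

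**Figure D5:**
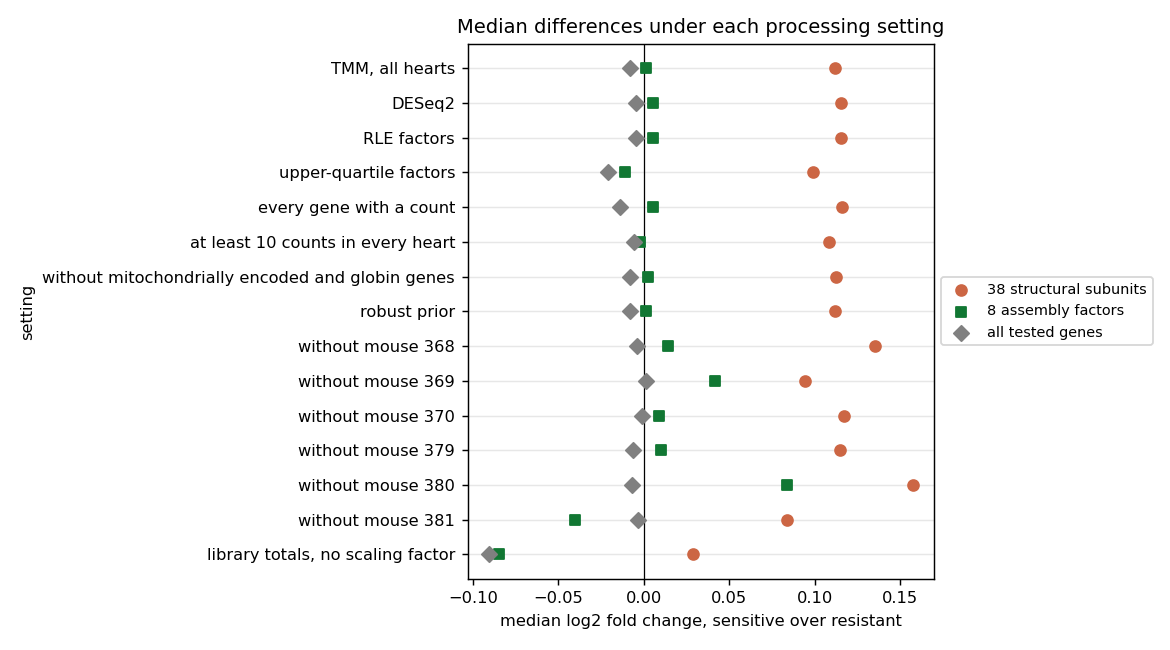
Median log2 fold change, sensitive over resistant (x axis), of the 38 structural genes, the 8 assembly factors and all tested genes, under each processing setting (y axis). The structural median stays above the median of all genes throughout, from 0.029 on library totals to 0.16 without mouse 380, and the assembly factor median lies on both sides of 0.

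Subunit genes of the other respiratory complexes stood beside those of complex I. Of the 41 tested nuclear subunits of complexes II to V, 40 were higher in sensitive hearts, and their median log2 fold change was 0.10. Of these genes 0 were called by edgeR or DESeq2. At an unadjusted p under 0.05 in edgeR 3 were higher, beside 7.19% of all tested genes. In 7 every sensitive heart lay above every resistant heart. Such separation was seen in 10% of all tested genes and in 22.8% of those whose mean log2 CPM reached 6. The genes of each complex with the smallest p were Sdhb in complex II (11.4%, edgeR adjusted p = 0.406), Uqcr10 in complex III (10.8%, 0.353), Cox5a in complex IV (13.4%, 0.222) and Atp5d in complex V (10.9%, 0.34). Within each heart the structural complex I genes differed from complexes II to V by between -0.037 and 0.016 in the median log2 deviation, with overlap of the genotypes.

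The mitochondrially encoded subunits of complex I, which form the proton channels of the membrane arm, were higher as well. All 7 had a log2 fold change above 0, with a median of 0.19, and their summed level was 92898.1, 87562.1 and 96455.1 CPM in resistant hearts and 100353, 98528.6 and 105024 CPM in sensitive hearts, without overlap. mt-Nd4l was the only one of the 7 to pass edgeR's threshold, where DESeq2 called 4, with 62.2, 57.6 and 60.6 CPM against 86.2, 88.3 and 77.1 CPM (39.5%, edgeR adjusted p = 0.0057). Its reads overlap the neighbouring mt-Nd4 on the same transcript. Over all tested genes edgeR called 1.44%, and DESeq2 called 3.7% of the genes it gave an adjusted p. Of all tested genes 48.4% were higher and 10% separated upwards. Of those whose mean log2 CPM reached 6, 68% were higher and 22.8% separated upwards. All mitochondrially encoded genes together took 23.4% to 24.4% of the counts in resistant hearts and 25.008% to 25.98% in sensitive hearts, and their part in the nuclear difference was not tested.

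Of 16 regulators of mitochondrial gene expression, 7 were higher and 9 lower, and the median log2 fold change was -0.039. None passed the threshold: 0 were called by edgeR or DESeq2. At an unadjusted p under 0.05 in edgeR 1 was higher and 3 were lower, beside 7.19% and 7.27% of all tested genes. The smallest p belonged to Ppargc1b, a coactivator of respiratory genes, at 24.2, 28.6 and 30.6 CPM in resistant hearts and 23.04, 21.7 and 20.6 CPM in sensitive hearts (-21.5%; edgeR adjusted p = 0.129). The direction of Ppargc1b was thus opposite to that of the structural genes. Yy1, whose letters are shown above and which was named after its values were seen, stood at 60.4, 60.6 and 57.0 CPM against 69.8, 66.5 and 72.5 CPM (17.3%, edgeR adjusted p = 0.145). The other regulators whose letters were searched lay on both sides of 0. Nrf1 (3.98%, edgeR adjusted p = 0.905), Esrra (9.91%, 0.368) and Esrrb (0.713%, 0.977) were higher. Gabpa (-3.26%, 0.815) and Esrrg (-13.1%, 0.309) were lower. A link between these levels and the letters was not tested.

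Markers of cell types differed beside the members, and in whole hearts fewer cells of a type and less RNA per cell cannot be told apart. Of 13 cardiomyocyte markers 11 were higher (median log2 fold change 0.083), with summed levels of 74045 to 90270.8 CPM in resistant and 81762.6 to 88521.9 CPM in sensitive hearts. Of 8 fibroblast markers 6 were lower (median -0.24), at 1161.34 to 1372.36 against 1041.53 to 1188.34 CPM. All 5 macrophage markers were lower (median -0.46), at 153 to 236 against 123 to 156 CPM, as were all 4 smooth muscle markers (median -0.39), at 104 to 145 against 99.6 to 112 CPM, and all 5 atrial markers (median -0.39), at 159 to 252 against 142 to 169 CPM. Of 6 endothelial markers 4 were lower (median -0.042), at 881 to 1035 against 757 to 935 CPM. The 5 erythroid markers were higher (median 0.66), at 536 to 1272 against 401 to 3187 CPM, the highest value being mouse 380, and the 3 tested of 4 adipocyte markers were higher (median 0.93, with at most 25 counts in any heart for Plin1 and Adipoq), at 19.1 to 21.5 against 18.8 to 23.7 CPM. The fourth, Ucp1, had 0 counts in every heart, and it was the only marker at 0. edgeR called 0 of the 49 tested markers, with 1 higher and 12 lower at an unadjusted p under 0.05. Of all tested genes 7.19% were higher and 7.27% lower at that p. DESeq2 called 6 markers, all lower in sensitive hearts, beside 3.7% of the genes it gave an adjusted p, in either direction. Within each heart, the structural median log2 deviation less that of the cardiomyocyte markers was 0.045, 0.037 and -0.15 in resistant hearts. In sensitive hearts it was 0.074, -0.013 and 0.014, so the genotypes overlapped. The part of the markers in the difference of the structural genes was not tested.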

How the data were processed

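RNA from 6 mouse hearts, 3 per genotype, was extracted with Trizol and RNeasy columns and sequenced on an Illumina NovaSeq instrument by a sequencing company. The authors deposited raw counts per gene without normalization. The submitters' processing notes name fastp, STAR, featureCounts and mm10 without versions, and whether counting used strand is not given in the sources used here. The authors' own comparison table (means, fold changes and p-values) was not used.

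Counts were analysed in R 4.3.3 with edgeR 4.0.16 (TMM, filterByExpr with minimum count 10 and minimum total 15, quasi-likelihood test, Benjamini-Hochberg adjustment over 14866 genes, threshold 0.05). A difference is sensitive over resistant. CPM were scaled by TMM, log2 CPM used a prior count of 2, and RPKM divided CPM by the deposited gene length. With 3 hearts per genotype an exact permutation test cannot give a p under 0.1. The edgeR p-values set the genotype difference against the variation between these hearts, which is estimated in part across genes. Within each genotype no pair of hearts looked like one library deposited again, since chi-square values averaged 6.86 to 13.2 a gene. The steps were tested on simulated data with changes much larger than those of the structural genes. That simulation does not show how well differences of the size seen here are detected.

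The members, the lists of other genes and the motifs were chosen with earlier results of these data known. Genes named were the 8 structural genes with the smallest p, those lower in sensitive hearts, the 7 core subunits, the 3 highest and 3 lowest per length, every Ndufaf gene, Ndufa4 and Ndufa4l2, and in each other list the called genes or the gene with the smallest p. 1 member that this rule names is counted in the totals and not reported here by itself. The regulators whose letters were searched were named outside this rule, after their values were seen. Of the factors without an Ndufaf name, Coa1 was not analysed here. Alternatives were DESeq2 1.42.0, RLE and upper-quartile factors, other filters, omission of mitochondrially encoded and globin genes, a robust prior and leaving out each heart. Library totals without a scaling factor were added after seeing the data.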

Additional observations from a re-analysis of the deposited data

How the results depend on the processing

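None of the 46 genes was called by edgeR or DESeq2 under any alternative (lowest adjusted p 0.195), and 30 of the 38 structural genes were higher in sensitive hearts in all of them. Over the whole table the count of called genes was 422 with DESeq2 and 618 with every gene that had a count, and between 80 and 158 when single hearts were left out. The structural median log2 fold change ran from 0.084 without mouse 381 to 0.16 without mouse 380, against 0.11, and 5 structural genes at an unadjusted p under 0.05 in edgeR became 0 without mouse 369 or mouse 381 and 13 without mouse 380. On library totals without a scaling factor, chosen after seeing the data, the structural median was 0.029, the assembly factor median -0.085 with 2 of 8 higher, and called genes split into 47 higher and 136 lower, against 108 and 123 with upper-quartile factors. The assembly factor median lay between -0.040 and 0.084 without single hearts.

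Of the values of single genes named by the rule above, 19 changed sign and 414 did not. Each gene that changed sign had a difference within its standard error. Leaving out single hearts gave log2 fold changes of -0.068 to 0.022 for Ndufb2, -0.11 to 0.048 for Ndufaf5, -0.051 to 0.097 for Ndufaf8 and -0.14 to 0.079 for Ndufaf2. Library totals gave -0.036 for Ndufaf3 and -0.080 for Ndufaf8, and upper-quartile factors -0.0072 for Ndufaf8. Ndufaf2 turned to 0.00115 with DESeq2, 0.00113 with RLE factors and 0.00148 with every gene that had a count. The cause was not tested. No paired analysis was possible because the labels name hearts by mouse number only, and the replicate numbers follow the order of the samples and tie no heart to a litter, batch or day of the other genotype. At a median standard error of 0.073, differences of the size seen in the structural genes were not resolved one gene at a time with 3 hearts per genotype.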
